A study of Danio rerio with 9 samples.

Results

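The transcriptome of the zebrafish proepicardium was compared with that of the dorsal pericardium, the tissue wall on which the proepicardium forms. The comparison used 6 of the 9 RNA sequencing libraries of the study, namely the 4 libraries labelled proepicardium and the 2 libraries labelled pericardium, and all genes with an Ensembl identifier. The remaining 3 libraries came from the heart tube and served to estimate the spread between libraries. Every group was made from larvae of strain AB at 60 hours post fertilisation, and all fish carried the transgenes epi:eGFP and myl7:mRFP, a green reporter under an element named epi and a red reporter under the promoter of the heart muscle gene myl7. Tissues were cut out by hand with needles, and each library holds a pool of at least 10 organs, so that differences between single fish are not visible. Whether the pools of a group came from separate clutches or days is not given in the labels, and p-values therefore measure only the spread between these pools.

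The proepicardium is a transient cluster of mesothelial cells near the inflow end of the embryonic heart. Its cells cross the pericardial cavity, settle on the myocardium and form the epicardium, which later supplies fibroblasts and mural cells to the heart. In zebrafish its formation depends on BMP signals and on transcription factors such as Tbx5, and its cells are commonly recognised by wt1a, wt1b, tcf21 and tbx18. The pericardium is itself a mesothelium derived from the same lateral plate mesoderm. The series title names WT1, and the comparison asks which genes distinguish the proepicardium from the wall it arises from.

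The libraries held 8883187 to 18621318 counts. The proepicardium libraries did not form an even group. Across genes, log2 CPM (counts scaled to a common library size, here with TMM factors) of proepicardium 1 and 2 correlated with the pericardium libraries at 0.939 to 0.957, and those of proepicardium 3 and 4 at 0.848 to 0.89, while the pericardium libraries correlated with each other at 0.96. Proepicardium 1 and 2 correlated with each other at 0.927 and with proepicardium 3 and 4 at 0.862 to 0.896. Proepicardium 3 and 4 correlated with each other at 0.912. By this measure proepicardium 1 and 2 each lay closer to both pericardium libraries than to any other proepicardium library. These correlations are descriptions over genes, which are not independent. The mitochondrial genome's own transcripts (11 genes, symbols beginning MT-) took 7.96%, 9.70%, 21% and 20.8% of the counts of proepicardium 1 to 4, and 6.81% and 8.18% in the pericardium. A list of 18 epidermal genes took 7.42%, 7.05%, 2.19% and 4.12% of the counts of proepicardium 1 to 4, against 8.22% and 9.81% for pericardium 1 and 2. A construct row named dsRed held 68, 36, 595 and 332 counts in proepicardium 1 to 4 and 73 and 35 counts in the pericardium. The heart tube libraries held 209, 221 and 181 counts of it. The labels give no batch, so results are also given for proepicardium 1 and 2 and for proepicardium 3 and 4 separately.

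No single gene separated the tissues after correction. Of 17003 genes tested with edgeR, 0 had an adjusted p under 0.05 (0%), and 834 had an unadjusted p under 0.05 (4.91%). The latter leaned to the proepicardium, with 650 genes higher there (3.82%) and 184 lower (1.08%). Their joint share of 4.91% is no more than a threshold of 0.05 gives where no gene differs. The count of 834 rested on single libraries, since it was 1601 without proepicardium 1 and 306 without pericardium 2. DESeq2 called 102 of the 14326 genes to which it gave an adjusted p (0.712%), 99 higher (0.691%) and 3 lower (0.0209%) in the proepicardium, and limma-voom called 7 (0.0412%), all higher. The arrangement of libraries was used to describe genes further. A gene is said below to stand apart when the lowest proepicardium library exceeded the highest pericardium library, or the highest proepicardium library stayed under the lowest pericardium library. The first arrangement held for 1300 genes (7.65%) and the second for 1318 genes (7.75%), and these shares are the background for the counts of gene lists below. A permutation test of a single gene with 4 against 2 libraries cannot give a two-sided exact p under 0.133. The libraries can be split 4 against 2 in 15 ways, and each arrangement is met by 1 of them. Both background shares are therefore close to what no difference between the tissues gives.

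The clearest shift concerned gene lists made up mainly of secreted plasma proteins. Of 43 tested genes on lists of liver proteins, yolk and liver lipoproteins, complement and coagulation factors and apolipoproteins, 33 stood apart with higher levels in the proepicardium (76.7%) and 2 with lower levels. The median log2 fold change of the 43 genes was 3.10, against -0.02 over all tested genes. These lists, like all lists below, were chosen with earlier results of these data known. Their counts beside the background shares are therefore descriptions and not independent support. In a bulk sample, fewer cells of a type and less RNA per cell cannot be told apart. None of these genes passed the adjusted threshold with edgeR, and DESeq2 called 20 of them, all higher in the proepicardium. The counts include some genes that are not plasma proteins. APOBEC2, on the apolipoprotein list by its symbol and not an apolipoprotein, was among the 20, and the liver list holds the transcription factor prox1.

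Apolipoproteins, the protein part of lipid-carrying particles, made up 8 of the 12 genes with the smallest edgeR p among named genes of at least 10 CPM that stood apart upward. apoa2 (ENSDARG00000015866), a component of high-density lipoprotein, was counted at 156, 107, 237 and 94.9 CPM in proepicardium 1 to 4, and at 16.2 and 12.9 CPM in pericardium 1 and 2. Every proepicardium library thus held several times the apoa2 level of either pericardium library, and the log2 fold change was 3.35 ± 0.50 (SE, edgeR adjusted p = 0.213). apobb.1 (ENSDARG00000022767), a gene for the large structural protein of low-density lipoprotein, stood at 189, 91.8, 208 and 81.8 CPM in the proepicardium and at 15.3 and 8.26 CPM in the pericardium. Its log2 fold change was 3.59 ± 0.57 (edgeR adjusted p = 0.232). The gene listed as APOB (ENSDARG00000042780) was at 38.1, 20.2, 59.4 and 14.8 CPM against 2.11 and 1.91 CPM (log2 fold change 4.04 ± 0.68, edgeR adjusted p = 0.289). The apolipoproteins apoa4b.1, apoa1b, apoea, apoc2 and apoc1 had the same arrangement, each with no overlap between the tissues. For apoc1 (ENSDARG00000092170), a small exchangeable apolipoprotein, the libraries held 147, 127, 368 and 51.7 CPM in the proepicardium, and 13.6 and 7.56 CPM in the pericardium. Over all 12 leading genes the log2 fold changes ran from 3.10 to 4.04 and the edgeR adjusted p from 0.213 to 0.539. DESeq2 called all 12, the edgeR fit without a filter on low counts 8, and limma-voom 7. For all 12 the heart tube mean lay below the proepicardium mean and above the pericardium mean. For apoa2 these means were 53.0, 149 and 14.5 CPM in that order.

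**Figure D1:**
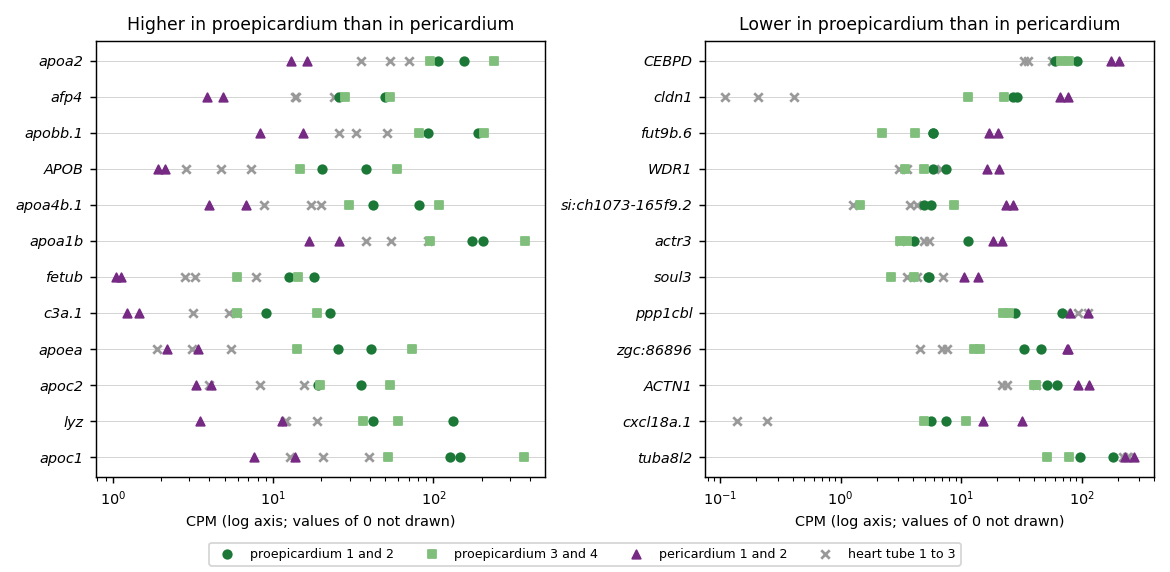
CPM per library (log axis) of the 12 leading genes in each direction, with circles for proepicardium 1 and 2, squares for proepicardium 3 and 4, triangles for the pericardium and crosses for the heart tube. In the left panel every proepicardium library lies to the right of both pericardium libraries, as for apoa2 with 94.9 CPM at the lowest against 16.2 CPM, and in the right panel every proepicardium library lies to the left. The genes were chosen for this lack of overlap.

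The other leading genes were afp4, fetub, c3a.1 and lyz. The antifreeze-type protein gene afp4 (ENSDARG00000095863) was at 49.6, 25.8, 53.4 and 28.1 CPM in the proepicardium and at 3.86 and 4.87 CPM in the pericardium (log2 fold change 3.17 ± 0.48, edgeR adjusted p = 0.213). fetub (ENSDARG00000053973), a secreted protease inhibitor made by the liver, was at 18.1, 12.5, 14.2 and 5.96 CPM against 1.05 and 1.13 CPM (log2 fold change 3.54 ± 0.66, edgeR adjusted p = 0.442). c3a.1 (ENSDARG00000012694), a gene for the central complement protein C3, was at 22.6, 8.96, 18.7 and 5.96 CPM against 1.45 and 1.22 CPM (log2 fold change 3.39 ± 0.66, edgeR adjusted p = 0.501). For afp4, fetub and c3a.1 the 4 proepicardium values were spread over a range smaller than their distance from the pericardium on a log scale. The values of lyz are given below with the macrophage and neutrophil genes.

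Of the liver list, 10 of 12 tested genes stood apart upward and the median log2 fold change was 3.37. The members included serpina1, the main plasma inhibitor of elastase, at 11.6, 3.57, 10.5 and 3.76 CPM in the proepicardium and 0.752 and 0.261 CPM in the pericardium. Of the complement and coagulation list, 15 of 20 tested genes stood apart upward, none downward, and the median was 3.07. The summed level of this list was 127.7, 75.26, 123.4 and 56.22 CPM in proepicardium 1 to 4, against 41.12 and 21.04 CPM in the pericardium. Its folds rest on few pericardium counts, such as 14 and 10 for FGB and 15 and 7 for fga. FGB and fga, which encode chains of the clotting protein fibrinogen, had log2 fold changes of 3.46 ± 0.93 and 3.39 ± 0.85 (edgeR adjusted p = 0.69 and 0.674), while FGG, the third chain, overlapped between the tissues with 15.3, 16.2, 11.4 and 8.06 CPM against 14.2 and 3.56 CPM. c4b, another complement gene, was at 5.07, 2.90, 12.6 and 2.10 CPM against 0.15 and 1.04 CPM. In the heart tube c4b was at 156, 32.1 and 10.1 CPM, with a mean of 66.2 CPM against 5.67 CPM in the proepicardium.

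Not every gene of this class followed. On the yolk and liver lipoprotein list 11 of 13 tested genes stood apart upward, and the other 2 stood apart in the opposite direction. apoeb (ENSDARG00000040295), an apolipoprotein E gene known in zebrafish from the yolk syncytial layer and from macrophages, was at 853, 894, 353 and 716 CPM in the proepicardium and at 1324 and 1835 CPM in the pericardium (log2 fold change -1.17 ± 0.43, edgeR adjusted p = 0.946). RBP4 (ENSDARG00000101199), the plasma carrier of retinol, was at 1618, 2061, 231 and 141 CPM against 2118 and 2502 CPM (log2 fold change -1.19 ± 0.92, edgeR adjusted p = 0.971), so that its lower mean lay mostly with proepicardium 3 and 4. apoeb was singled out after its values were seen. The summed level of this list was 3599, 3677, 2357 and 1332 CPM in proepicardium 1 to 4, and 3566 and 4408 CPM in the pericardium. The sum of the apolipoprotein list was 2232, 1791, 2257 and 1360 CPM against 1632 and 2162 CPM. The shift of these lists thus concerned most of their genes and not their total transcript level.

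The summed level of the liver list was 234 to 601 CPM in the proepicardium libraries and 36.25 to 65.75 CPM in the pericardium. Within that list fabp10a, a fatty acid binding protein that marks zebrafish hepatocytes, had 0 counts in all 4 proepicardium libraries, which allows up to 0.169 to 0.331 CPM (3 counts, counting error only), and 0 and 4 counts in the pericardium. Haptoglobin (hp) had counts in proepicardium 3 alone, where there were 4, and prox1 (listed as PROX1), a transcription factor of liver and lymphatic cells, overlapped between the tissues (log2 fold change 0.27 ± 0.46, edgeR adjusted p = 0.971). Which cells contributed the plasma protein transcripts was not tested. The shift was of similar size in each pair of proepicardium libraries. Over the tested genes of the plasma protein lists the median was 3.18 with proepicardium 1 and 2 alone, where 35 of 41 stood apart upward (background 13%). It was 3.31 with proepicardium 3 and 4 alone, where 34 of 41 did (background 29.9%). For the 12 leading genes the log2 fold changes were 2.87 to 3.86 in the first pair and 2.81 to 4.4 in the second. These genes were chosen for no overlap over all 4 proepicardium libraries, so their positive sign in each pair was fixed by the choice.

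Blood cell genes were also higher in the proepicardium. Of 7 tested erythroid genes, 6 stood apart upward, and the median log2 fold change was 2.63. The embryonic globin gene hbae1.1 (ENSDARG00000089475) was at 169, 95.2, 453 and 306 CPM in the proepicardium and at 29.3 and 47.2 CPM in the pericardium (log2 fold change 2.74 ± 0.69, edgeR adjusted p = 0.674). alas2 (ENSDARG00000038643), the erythroid enzyme that starts heme synthesis, was at 27.7, 13.4, 73.5 and 55.0 CPM against 7.22 and 6.43 CPM. For both genes proepicardium 3 and 4 were the high proepicardium libraries, and proepicardium 1 and 2 still exceeded the pericardium, as their choice required. The same order held for hemgn, a regulator of red cell development, with a log2 fold change of 2.84 ± 0.73, and for epb41b, a component of the red cell membrane skeleton, with 2.54 ± 0.70 (edgeR adjusted p = 0.688 and 0.741). The median of the erythroid list was 1.60 with proepicardium 1 and 2 and 3.30 with proepicardium 3 and 4. DESeq2 called 4 of the 7 genes. Heart tube means exceeded proepicardium means for hbae1.1 (513 against 256 CPM) and alas2 (93.0 against 42.4 CPM). The same held for hemgn (46.1 against 31.5 CPM) and epb41b (48.7 against 27.3 CPM).

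Of 7 tested macrophage and neutrophil genes, 3 stood apart upward. lyz (ENSDARG00000057789), the lysozyme gene of zebrafish myeloid cells, was at 132, 41.9, 36.5 and 59.8 CPM in the proepicardium and at 11.3 and 3.48 CPM in the pericardium (log2 fold change 3.18 ± 0.67, edgeR adjusted p = 0.539). Proepicardium 1 was the high library for lyz, and proepicardium 2 to 4 lay closer together. SPI1, a myeloid transcription factor, overlapped with 7.22, 2.66, 6.51 and 1.88 CPM against 2.16 and 0.522 CPM. The list had a median of 1.86, which was 3.09 without pericardium 1, and unlike the erythroid list it was not lower with proepicardium 1 and 2 (2.23) than with proepicardium 3 and 4 (1.72). Of 11 tested endothelial genes 0 stood apart in either direction, and the median was 0.20. That result rested on single libraries: without proepicardium 3 the median was -0.11, and without pericardium 1 it was 1.06, with 8 of the 11 genes apart upward (background 18.1%).

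**Figure D2:**
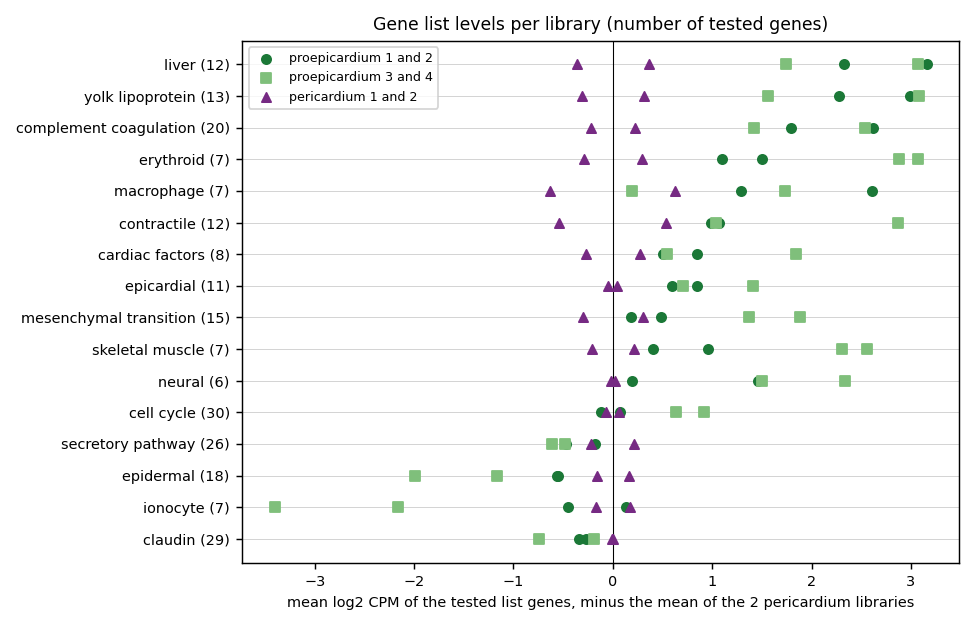
Mean log2 CPM of the tested genes of 16 lists in each proepicardium and pericardium library, minus the mean of the 2 pericardium libraries, with the number of tested genes after each name. The liver, lipoprotein and complement lists lie above the pericardium in all 4 proepicardium libraries, whereas the skeletal muscle, mesenchymal and ionocyte lists part mainly in proepicardium 3 and 4.

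Heart muscle genes had low levels in both tissues and stood higher in the proepicardium. Of 12 tested contractile genes, 6 stood apart upward and none downward, with a median log2 fold change of 1.65. The median was 0.94 with proepicardium 1 and 2 and 2.43 with proepicardium 3 and 4, and it was 0.93 without proepicardium 3 and 2.57 without pericardium 1. MYL7 (ENSDARG00000019096), the myosin light chain of the heart whose promoter drives the red reporter, was at 53.2, 91.8, 163 and 42.5 CPM in the proepicardium and at 19.8 and 6.35 CPM in the pericardium (log2 fold change 2.74 ± 0.65, edgeR adjusted p = 0.577). In the heart tube the same gene was counted at 19873 to 27993 CPM, so both tissues held a small fraction of the heart level. The mCherry construct row showed 0, 0, 1 and 1 counts across proepicardium 1 to 4, and 1 and 0 in pericardium 1 and 2. MYL7 had 944, 1106, 2661 and 385 counts in the same proepicardium libraries, and 394 and 73 in the pericardium. In the heart tube the mCherry row had 3938, 4042 and 3059 counts, and MYL7 had 389709, 287426 and 343268. The red reporter named above is mRFP, and whether the mCherry row reads it was not tested. Transcript carried over from heart muscle was not tested as a source of the contractile genes. cmlc1, the essential myosin light chain of the heart, was at 23.4, 40.0, 73.1 and 14.5 CPM against 10.6 and 4.00 CPM (log2 fold change 2.36 ± 0.65, edgeR adjusted p = 0.71). myh6, the atrial myosin heavy chain, had the largest contractile value, 3.99 ± 1.21 (edgeR adjusted p = 0.894), on 1.41, 3.07, 15.3 and 1.66 CPM against 0.451 and 0.174 CPM, where proepicardium 3 held most of the signal. nppa, a natriuretic peptide gene, overlapped with 10.8, 13.2, 26.8 and 15.4 CPM against 13.6 and 3.39 CPM.

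Of 8 tested cardiac transcription factor genes, 4 stood apart upward and the median was 1.22. It was 0.72 with proepicardium 1 and 2, 1.75 with proepicardium 3 and 4, and 0.76 without proepicardium 3. TBX5 (ENSDARG00000024894), a T-box factor required for proepicardium formation in zebrafish, was at 2.26, 7.05, 10.0 and 1.88 CPM in the proepicardium and at 1.00 and 0.956 CPM in the pericardium (log2 fold change 2.43 ± 0.69, edgeR adjusted p = 0.741). GATA6 (ENSDARG00000103589), a zinc finger factor of the heart and its lining, was at 4.74, 2.82, 9.15 and 4.75 CPM against 1.60 and 1.56 CPM (log2 fold change 1.76 ± 0.47, edgeR adjusted p = 0.69). GATA5, its relative, was at 11.7, 16, 60.5 and 19.2 CPM against 7.57 and 3.91 CPM (log2 fold change 2.22 ± 0.69, edgeR adjusted p = 0.894). The gap between the tissues was narrow for each of the 3 genes, and proepicardium 3 was their highest proepicardium library. Heart tube means were higher still, at 46.1, 69.2 and 196 CPM for TBX5, GATA6 and GATA5. The fourth was NKX2-5, a homeobox factor of heart muscle, at 3.21, 2.49, 8.60 and 3.53 CPM against 1.35 and 1.30 CPM, named after its values were seen. gata4, TBX20, HAND2 and ISL1 overlapped, and HAND2, a factor of heart and lateral mesoderm, had 78.5, 37.6, 171 and 84.9 CPM in the proepicardium and 75.8 and 39.6 CPM in the pericardium.

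The epicardial markers were examined as a check of the proepicardium label against the pericardium. Of 11 tested epicardial genes, 6 stood apart upward and none downward, and the median log2 fold change was 1.71. These were wt1b, TCF21, TBX18, ALDH1A2, podxl and TBX5. Heart tube means exceeded proepicardium means for podxl (187 against 42.5 CPM), TBX5 (46.1 against 5.30 CPM) and ALDH1A2 (53.0 against 18.8 CPM). For wt1b the heart tube mean was lower (0.023 against 1.34 CPM). podxl, TBX5 and ALDH1A2 thus do not mark the proepicardium off from the heart tube. TCF21 (ENSDARG00000036869), a basic helix-loop-helix factor of epicardial cells, was at 3.21, 2.49, 7.49 and 5.52 CPM in the proepicardium and at 1.35 and 0.348 CPM in the pericardium (log2 fold change 2.41 ± 0.94, edgeR adjusted p = 0.954). TBX18 (ENSDARG00000036930), a T-box factor of the same cells, was at 0.789, 0.664, 2.03 and 1.55 CPM against 0.201 and 0.174 CPM (log2 fold change 2.68 ± 0.99, edgeR adjusted p = 0.946). ALDH1A2, the enzyme that makes retinoic acid in the epicardium and lateral mesoderm, was at 11.2, 6.89, 30.9 and 26.4 CPM against 6.57 and 4.87 CPM (log2 fold change 1.71 ± 0.81, edgeR adjusted p = 0.971). podxl, a sialomucin of mesothelial cells and podocytes, was at 15.6, 20.7, 90.3 and 43.2 CPM against 9.98 and 15.4 CPM, so that proepicardium 1 barely exceeded pericardium 2. TCF21 and TBX18 were named after their values were seen. The construct row named Egfp held 5, 0, 6 and 1 counts in proepicardium 1 to 4, and 0 in every pericardium and heart tube library. These counts are too few to check the label by the green reporter.

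Other genes known from the epicardium or mesothelium did not separate the tissues. CAV1, the main coat protein of caveolae, was at 317, 295, 184 and 127 CPM in the proepicardium and at 219 and 291 CPM in the pericardium (log2 fold change -0.15 ± 0.43, edgeR adjusted p = 0.979). BNC1, a zinc finger gene of mesothelium, was at 13, 15.4, 8.54 and 9.72 CPM against 14.3 and 17.4 CPM, and PTGIS, the prostacyclin synthase gene, at 36.5, 40.2, 15.7 and 6.74 CPM against 39.6 and 44.1 CPM. These 3 genes, also named after their values were seen, were thus counted in the pericardium at levels like those of proepicardium 1 and 2. In proepicardium 3 and 4, however, each of them lay below both pericardium libraries. The median of the epicardial list was 0.66 with proepicardium 1 and 2 and 2.40 with proepicardium 3 and 4. With the first pair 7 of 11 tested genes stood apart upward and 0 downward (background 13% and 14.2%). With the second pair 6 stood apart upward and 3 downward (background 29.9% and 29.1%).

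The WT1 genes were near the limit of detection. The gene listed as WT1 (ENSDARG00000031420), the zebrafish wt1a, had 7, 3, 18 and 5 counts across proepicardium 1 to 4, and 1 and 0 in pericardium 1 and 2, which is 0.395, 0.249, 1.11 and 0.552 CPM against 0.0502 and 0 CPM. Its counts were too low for the filter, and it has no test. wt1b (ENSDARG00000007990) had 1.01, 0.996, 2.58 and 0.773 CPM in the proepicardium against 0.10 and 0.608 CPM (log2 fold change 1.97 ± 1.18, edgeR adjusted p = 0.971). Both copies stood apart upward, on a handful of counts in the pericardium. Markers of podocytes, kidney cells that also express WT1 genes, gave little: NPHS1, which encodes the slit diaphragm protein nephrin, overlapped with 1.92, 0.581, 2.03 and 0.663 CPM against 1.55 and 0.956 CPM, and podxl was the single podocyte list gene of 4 tested that stood apart.

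Several further groups were higher mainly in proepicardium 3 and 4. Of 15 tested genes of the epithelial to mesenchymal transition, 6 stood apart upward and 1 downward, with a median of 1.33. twist1b (ENSDARG00000076010), a transcription factor of mesenchymal progenitors, was at 20.1, 16.8, 97.0 and 27.9 CPM in the proepicardium and at 11.1 and 3.56 CPM in the pericardium (log2 fold change 2.45 ± 0.79, edgeR adjusted p = 0.946). snai1b, a repressor of E-cadherin, was at 5.47, 6.14, 18.1 and 8.62 CPM against 2.91 and 2.17 CPM, and CDH2, the N-cadherin gene, at 17.1, 17.4, 68.3 and 43.0 CPM against 13 and 11.7 CPM. Proepicardium 3 was the highest library for each of them. The median of the list was 0.16 with proepicardium 1 and 2, 2.10 with proepicardium 3 and 4, and 0.79 without proepicardium 3. VIM, the vimentin gene that marks mesenchyme in many animals, overlapped with 3.78, 4.98, 2.21 and 7.62 CPM against 8.53 and 6.43 CPM.

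Of 7 tested skeletal muscle genes, 4 stood apart upward with a median of 1.95. ckmb, a muscle creatine kinase gene, was at 39.1, 43.1, 172 and 101 CPM in the proepicardium and at 25.7 and 12.8 CPM in the pericardium (log2 fold change 2.20 ± 0.79, edgeR adjusted p = 0.946). MYOD1, the master regulator of skeletal muscle, was at 24.6, 16.3, 105 and 30.2 CPM against 9.63 and 6.43 CPM. The median was 0.76 with proepicardium 1 and 2 and 2.62 with the other pair. Of 6 tested neural genes 2 stood apart upward, ELAVL4 and tubb5, an RNA-binding protein and a tubulin of neurons, and the median was 0.74 and 2.27 in the same order. All 6 tested neural genes had a positive log2 fold change, and ELAVL4 was at 2.71, 7.38, 6.69 and 14.4 CPM against 2.16 and 2.26 CPM. Of the 3 neural genes below the filter, nefma, a neurofilament gene, had 0 counts in all 6 libraries, mbpa, a myelin gene, had at most 0.184 CPM, and GFAP, a glial filament gene, at most 0.884 CPM. The summed level of the skeletal muscle list was 158 to 635 CPM in the proepicardium and 80.06 to 102 CPM in the pericardium, and that of the neural list 26.3 to 118 CPM against 23.0 to 26.4 CPM. The part that RNA of neighbouring tissue had in the mesenchymal, cardiac and epicardial values of proepicardium 3 and 4 was not tested.

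**Figure D3:**
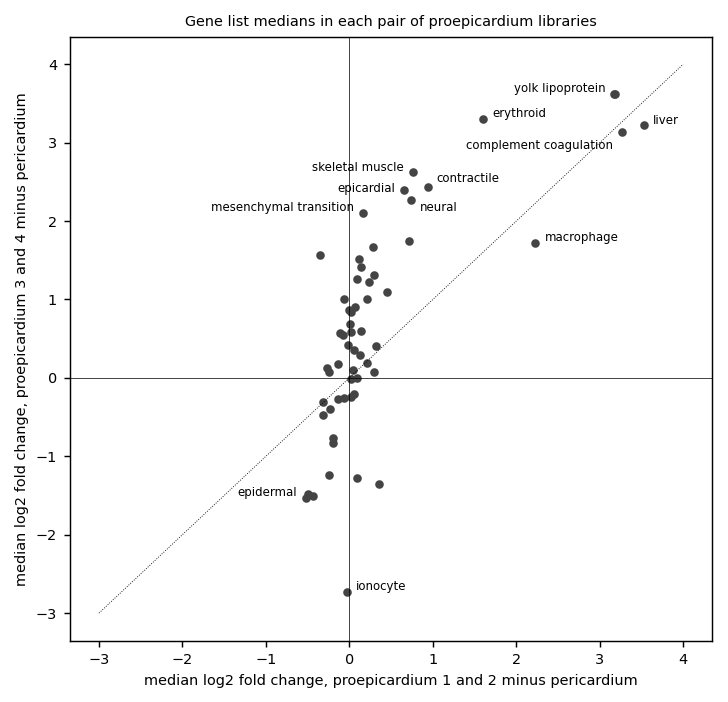
Median log2 fold change of each of the 58 gene lists against the pericardium, with proepicardium 1 and 2 on the horizontal axis and proepicardium 3 and 4 on the vertical axis, 1 point per list, and a dotted line of equality. The liver and complement lists lie near the line at values over 3, whereas the epicardial list (0.66 and 2.40) and the ionocyte list (-0.03 and -2.73) lie farther from 0 with proepicardium 3 and 4.

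With proepicardium 3 and 4 as the only proepicardium libraries, edgeR called 250 of 16506 genes (1.51%), 162 higher (0.981%) and 88 lower (0.533%), and with proepicardium 1 and 2 it called 0 of 16432 genes (0%), where 316 had an unadjusted p under 0.05 (1.92%). The mitochondrial share, the dsRed row and the epidermal share given above separate the same pairs of libraries. What distinguishes the pairs was not tested.

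Signals that act on the proepicardium were mixed. Of 18 tested BMP pathway genes, 3 stood apart upward and the median was 0.58. nog2 (ENSDARG00000043066), a secreted BMP inhibitor, was at 3.38, 4.81, 18.9 and 6.19 CPM in the proepicardium and at 1.30 and 1.56 CPM in the pericardium (log2 fold change 2.54 ± 0.69, edgeR adjusted p = 0.69), and DESeq2 called it. bmpr1ba, a type I BMP receptor, was at 3.72, 3.98, 9.76 and 11.7 CPM against 2.81 and 1.04 CPM (log2 fold change 1.89 ± 0.71, edgeR adjusted p = 0.947). ID1, a direct target of BMP signalling, was at 244, 202, 545 and 315 CPM against 180.0 and 186 CPM (log2 fold change 0.83 ± 0.40, edgeR adjusted p = 0.971). BMP4 itself, a ligand, overlapped with 21.9, 15.4, 73.6 and 43.0 CPM against 19.7 and 15.8 CPM, as did the targets ID2 and ID3. The heart tube mean of nog2 was above its proepicardium mean (43.8 against 8.32 CPM). Those of bmpr1ba (2.20 against 7.29 CPM) and ID1 (234 against 327 CPM) were below. The median of the BMP list was 0 with proepicardium 1 and 2 and 0.87 with the other pair. Of 9 tested genes on a list of proepicardium-forming signals and factors, TBX5 and ID1 stood apart. The retinoic acid list had 8 tested genes, of which 2 stood apart upward and 1, RBP4, downward.

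Hox genes, which set position along the body axis, did not share a direction. Of 29 tested Hox genes, 9 stood apart upward and 3 downward, and the median of 0.42 was 0.16 without proepicardium 2 and 0.19 without proepicardium 3. Among the Hox B genes of paralog groups 2 to 8, all 8 tested had a positive log2 fold change and 6 stood apart. HOXB8 (ENSDARG00000056027) was at 5.81, 3.15, 17.1 and 3.42 CPM in the proepicardium and at 0.702 and 0.869 CPM in the pericardium (log2 fold change 3.23 ± 1.00, edgeR adjusted p = 0.874), and DESeq2 called it. HOXB6 was at 4.85, 3.49, 15.5 and 4.20 CPM against 0.802 and 1.91 CPM. The HOXB5 copy ENSDARG00000013057 was at 11.2, 18.7, 35.3 and 22.3 CPM against 4.31 and 4.35 CPM. These genes exceeded the pericardium in all 4 proepicardium libraries, proepicardium 1 and 2 included, as their choice as named genes required. None of the 6 tested Hox C and Hox D genes of paralog groups 6 to 11 had a positive log2 fold change, and HOXC6, HOXC9 and HOXD10 stood apart downward. HOXC6 (ENSDARG00000070343) was at 4.68, 11, 3.87 and 0.11 CPM against 11.9 and 22.2 CPM (log2 fold change -1.79 ± 0.99, edgeR adjusted p = 0.971), and HOXD10 at 3.44, 3.57, 0.368 and 0.11 CPM against 5.22 and 5.82 CPM. The Hox A genes of groups 9 to 13 were also all negative, 3 of 3 tested, and those of groups 1 to 5 were all positive, 4 of 4. Hox C and Hox D genes of groups 1 to 5 were mixed, with 3 of 6 positive, among them HOXC4 at 0.82, hoxc1a at 0.36 and HOXD3 at 0.11 on the log2 fold change scale. Cluster and paralog number overlap in this grouping, and no Hox B gene beyond group 8 was among those tested. The grouping, and the names HOXC6, HOXC9 and HOXD10, were chosen after the values were seen.

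**Figure D4:**
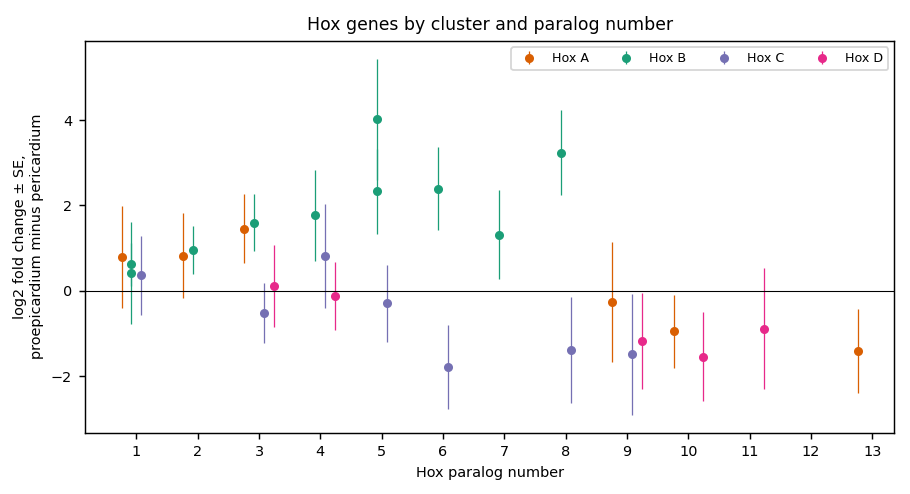
Log2 fold change ± SE between proepicardium and pericardium (edgeR) of 28 tested Hox genes, by paralog number and coloured by cluster, and HOXA5 is not drawn because both pericardium libraries had 0 counts. Hox B genes of groups 2 to 8 lie above 0, up to 4.02 for a HOXB5 copy, and Hox C and Hox D genes of groups 6 to 11 and Hox A genes of groups 9 to 13 lie below 0.

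The 12 leading genes that were lower in the proepicardium had log2 fold changes of -2.29 to -1.10 and edgeR adjusted p of 0.577 to 0.919. CEBPD (ENSDARG00000087303), a transcription factor induced in inflammation, was at 60.1, 91.7, 67.7 and 78.6 CPM in the proepicardium and at 204 and 174 CPM in the pericardium (log2 fold change -1.34 ± 0.32, edgeR adjusted p = 0.577). It was 1 of the 3 genes that DESeq2 called lower. The gene otomp, known from the zebrafish otolith matrix, was another, with 0, 0.249, 0 and 0 CPM in the proepicardium and 0.301 and 7.3 CPM in the pericardium, so that nearly all its signal lay in pericardium 2. Its edgeR adjusted p was 0.577, and it was named after its values were seen. cldn1 (ENSDARG00000040045), a tight junction protein of epidermis, was at 27.1, 29.2, 11.5 and 22.8 CPM against 77.0 and 66.8 CPM (log2 fold change -1.67 ± 0.40, edgeR adjusted p = 0.577). fut9b.6 (ENSDARG00000102554), a fucosyltransferase gene, was at 5.86, 5.89, 4.11 and 2.21 CPM against 17.2 and 20.3 CPM (log2 fold change -2.04 ± 0.48, edgeR adjusted p = 0.674), and DESeq2 called it too. For CEBPD, cldn1 and fut9b.6 proepicardium 1 and 2 lay below both pericardium libraries, as did proepicardium 3 and 4. This arrangement was a condition for the leading genes.

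Genes of the actin cytoskeleton recurred among the leading lower genes. WDR1, which helps to take actin filaments apart, was at 7.56, 5.89, 3.44 and 4.97 CPM in the proepicardium and at 16.4 and 20.5 CPM in the pericardium (log2 fold change -1.75 ± 0.44, edgeR adjusted p = 0.674). actr3, a subunit of the Arp2/3 complex that branches actin filaments, was at 11.5, 4.07, 3.13 and 3.53 CPM against 18.5 and 22 CPM, and ACTN1, an actin crosslinker, at 62.6, 51.7, 40.3 and 42.2 CPM against 116 and 94.1 CPM (edgeR adjusted p = 0.741 and 0.894). This grouping was made after the names were seen and no list of actin regulators was examined. The others were si:ch1073-165f9.2, soul3, ppp1cbl, zgc:86896, the chemokine gene cxcl18a.1 and the tubulin gene tuba8l2. Over all 12 the log2 fold changes were -2.27 to -0.84 with proepicardium 1 and 2 and -2.48 to -1.23 with proepicardium 3 and 4. Their negative sign in both pairs was fixed by the choice of genes without overlap.

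Epidermal genes were lower in the proepicardium as a group. None of 18 tested epidermal genes had a positive log2 fold change, 9 stood apart downward, and the median was -0.93. The keratin gene krt91 was at 852, 1488, 252 and 353 CPM in the proepicardium and at 1677 and 1711 CPM in the pericardium (log2 fold change -1.20 ± 0.88, edgeR adjusted p = 0.971). krt17 was at 705, 340, 106 and 181 CPM against 1012 and 786 CPM, and the gene listed as krt1-19e at 2905, 3609, 474 and 1187 CPM against 4703 and 5381 CPM. Proepicardium 3 and 4 were the low libraries for each of them. The median of the list was -0.52 with proepicardium 1 and 2 and -1.53 with proepicardium 3 and 4. Among keratins, 7 of 18 tested genes stood apart downward and 1 upward, with a median of -0.94 that was -0.62 without pericardium 2. Among claudins, which seal tight junctions, 8 of 29 stood apart downward and none upward, with cldni, an epidermal claudin, at 640, 671, 221 and 408 CPM against 1127 and 846 CPM. The claudin median was -0.39, and it was -0.31 with each pair of proepicardium libraries and -0.18 without pericardium 2.

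Skin ionocytes, which exchange ions with the water, showed the widest split between libraries. foxi3a, the transcription factor that specifies them in zebrafish, was at 28.0, 15.4, 2.70 and 0.663 CPM in the proepicardium and at 23.6 and 38.0 CPM in the pericardium (log2 fold change -1.39 ± 1.07, edgeR adjusted p = 0.971), named after its values were seen. ca15a, a carbonic anhydrase gene, was at 92.5, 59.5, 6.57 and 16.1 CPM against 94.8 and 133 CPM, the single ionocyte gene of 7 tested that stood apart. Proepicardium 1 was close to pericardium 1 for ca15a, whereas proepicardium 3 and 4 were far below. The median of the list, -0.67, was -0.03 with proepicardium 1 and 2 and -2.73 with proepicardium 3 and 4, and -1.47 without proepicardium 2, -1.32 without proepicardium 1 and -0.34 without proepicardium 4, so the lower ionocyte and epidermal levels moved with the same libraries as the higher mesenchymal and muscle levels.

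Smooth muscle genes, annexins and the secretory pathway were examined next. Of 3 tested smooth muscle genes, acta2 and TAGLN stood apart downward. acta2, the smooth muscle actin gene, was at 5.19, 4.15, 4.73 and 0.884 CPM in the proepicardium and at 14.9 and 15.8 CPM in the pericardium (log2 fold change -2.02 ± 0.68, edgeR adjusted p = 0.946), and TAGLN, an actin-binding protein of smooth muscle, was at 375, 317, 171 and 156 CPM against 543 and 441 CPM. Of 15 tested annexins, membrane-binding calcium sensors, 5 stood apart downward and 1 upward, with a median of -0.52 that was -0.32 without pericardium 1, and ANXA1 was at 550.0, 405, 195 and 162 CPM against 710.0 and 742 CPM (log2 fold change -1.15 ± 0.45, edgeR adjusted p = 0.954). Of 26 tested genes of the secretory pathway, 4 stood apart downward and none upward, among them SSR1, a subunit of the protein translocon, at 39.8, 23.4, 16.6 and 22.6 CPM against 43.2 and 105 CPM. The median of this list, -0.38, was -0.02 without pericardium 2, with 11 of 26 genes positive in place of 2. The matrix and basement membrane list showed no common direction, with 2 of 22 tested genes apart upward, 1 downward and a median of -0.06, which became 0.16 without proepicardium 1. Its members differed, since COL6A2, a microfibrillar collagen gene, had a log2 fold change of 1.63 ± 0.51, and SPARC, a matrix-binding glycoprotein gene, one of -0.96 ± 0.37 (edgeR adjusted p = 0.894 and 0.947).

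**Figure D5:**
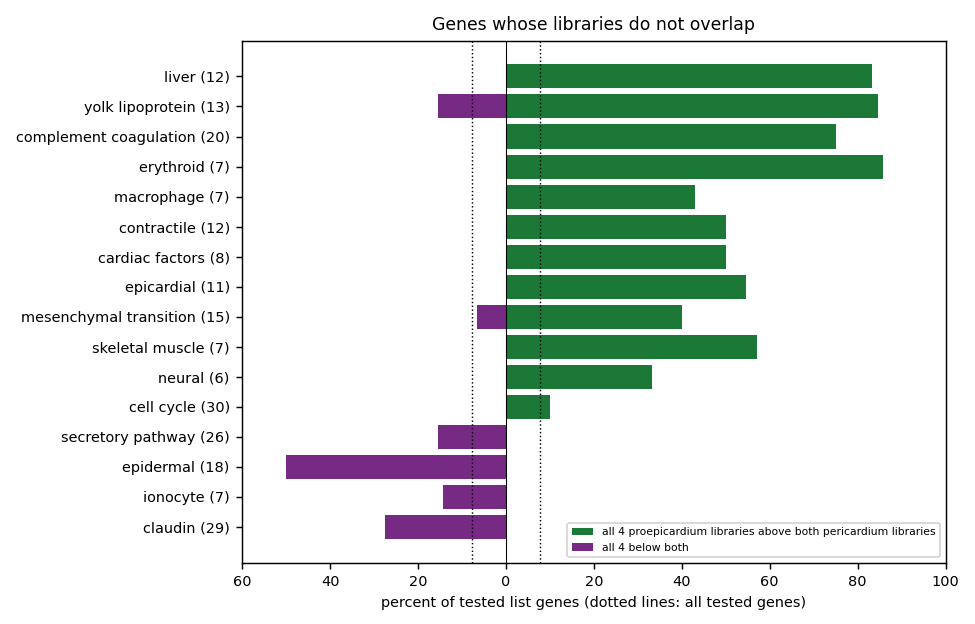
Percent of the tested genes of 16 lists whose 4 proepicardium libraries all exceed the 2 pericardium libraries (green, to the right) or all lie under them (purple, to the left), with the number of tested genes after each name. Dotted lines mark the shares over all tested genes, 7.65% and 7.75%. The liver, lipoprotein, complement and erythroid bars are the longest to the right and the epidermal bar is the longest to the left among the lists drawn, which leave out the smooth muscle, keratin and annexin lists.

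General cell functions differed little with all 4 proepicardium libraries, and more with proepicardium 3 and 4 alone. Of 30 tested cell division genes, 29 had a positive log2 fold change, but 3 stood apart (10.0%, near the background) and the median was 0.44. MCM2, part of the replicative helicase, was at 33.2, 41.2, 69.8 and 59.4 CPM in the proepicardium, and 29.7 and 29.5 CPM in the pericardium (log2 fold change 0.78 ± 0.41, edgeR adjusted p = 0.971). With proepicardium 1 and 2 alone the median of this list was 0.07, and without proepicardium 3 it was 0.29. With proepicardium 3 and 4 alone it was 0.91, and 27 of 30 genes stood apart upward (background 29.9%). Of 87 tested ribosomal protein genes 10 stood apart upward and 5 downward, with a median of 0.17. The ribosomal protein median became -0.02 with proepicardium 1 and 2 alone. With proepicardium 3 and 4 alone it became 0.42, and 66 of 87 genes stood apart upward. Nuclear genes of respiratory complex I had a median of -0.13 over 36 tested genes, 0 of them apart upward and 1 downward. The complex I median was 0.06 with proepicardium 1 and 2 alone and -0.20 with proepicardium 3 and 4 alone. In the latter pair 1 gene stood apart upward and 15 downward (background downward 29.1%).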

How the data were processed

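Bulk RNA was amplified with SMARTer Ultra Low Input cDNA synthesis and sequenced, per the labels' protocols. The authors deposited raw read counts per gene, and a table of log2 normalized values of the same libraries, which served only as an alternative. CASAVA 1.8, fastp, STAR, featureCounts and DESeq2 and the builds GRCz11 and danRer11 are named in the submitters' processing notes. Their roles, the annotation release and any strand setting are not given in the sources used here, so that reads of near-identical copies (hemoglobins, keratins, apolipoproteins, duplicated Hox genes) or of overlapping genes may be shared between them. The design text counts 3 proepicardium samples and the sample labels list 4, and the labels were followed.

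Counts of 32520 genes were filtered with filterByExpr (count minimum 10, total minimum 15) and fitted in R 4.3.3 by edgeR 4.0.16 (TMM factors, robust quasi-likelihood test, tissue as the only factor, all 9 libraries, Benjamini-Hochberg adjustment). The 16 rows of constructs stayed out of the fit. The fitting code was tested on simulated data. Symbols came from the names table and RefSeq (29201 genes), and human-style symbols are printed as listed there. CPM are scaled by TMM factors, and 3 counts, the most that a count of 0 allows at about 95% confidence, correspond to 0.15 to 0.331 CPM for counting error only. DESeq2 1.42.0 and limma 3.58.1 (voom with quality weights) were alternatives, as were other filters, scalings and subsets of libraries. Named genes were the 12 with the smallest p in each direction among those with a symbol, at least 10 CPM and no overlap, and up to 4 genes per described list. Genes described as overlapping, and further list members, were picked after their values were seen. Members and the 58 lists were chosen with earlier results of these data known.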

Additional observations from a re-analysis of the deposited data

Results flagged for a closer look

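Among 89 named genes, 9 had 1 proepicardium library far from the other 3 by Dixon's criterion for 4 samples, which flags about 1 in 20 groups by chance. Proepicardium 3 was the high library for 7 of them. It held 2.58 CPM of wt1b (others 0.773 to 1.01), 15.3 CPM of myh6 (1.41 to 3.07) and 60.5 CPM of GATA5 (11.7 to 19.2). It also held 105 CPM of MYOD1 (16.3 to 30.2), 97.0 CPM of twist1b (16.8 to 27.9), 15.5 CPM of HOXB6 (3.49 to 4.85) and 21.9 CPM of aurka, a mitotic kinase gene (10.1 to 11.3). Proepicardium 1 was the high library for actr3, with 11.5 CPM (3.13 to 4.07), and for ppp1cbl, with 69.2 CPM (22.2 to 27.9).

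The dsRed construct row, which enters no comparison, held 595 counts in proepicardium 3 and 332 in proepicardium 4, against 68 and 36 in proepicardium 1 and 2 and 73 and 35 in the pericardium. The labels name no dsRed transgene, though they name the red reporter mRFP. Whether the dsRed row reads that reporter, and the origin of these counts in general, was not tested.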

How the results depend on the processing

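The count of genes past the adjusted threshold was 0 with edgeR and became 9 without a filter, 250 with proepicardium 3 and 4 only, 102 with DESeq2 and 7 with limma-voom. The count at an unadjusted p under 0.05, 834, became 351 with a replicate block, 316 with proepicardium 1 and 2 only, 2976 with proepicardium 3 and 4 only and 2438 with limma-voom. Leaving out 1 library gave 306 (without pericardium 2) to 1601 (without proepicardium 1), with 1424 without proepicardium 2, 507 without proepicardium 3 and 545 without pericardium 1. Genes apart upward, 1300, became 2139 with proepicardium 1 and 2 only and 4941 with proepicardium 3 and 4 only, and 1565 to 3337 with 1 library left out. Genes apart downward, 1318, became 688 at a mean count of at least 50, 2337 and 4795 with the same pairs, and 1455 to 2981 with 1 library left out. Fewer libraries leave fewer values that must not overlap. None of 88 named genes changed sign in the alternatives run, but these genes had no overlap between the tissues to begin with. Leaving out libraries cannot reverse such genes, so this outcome does not show how stable they are. Of 58 list medians, 21 changed sign in at least 1 alternative, with values of -0.27 to 0.82 to begin with, and among the lists described in the report these were the endothelial, matrix, ribosomal protein and complex I lists. The replicate numbers were not shown to pair the samples: deviations of same-numbered libraries correlated at 0.083 and 0.129 over 2 pairs. Libraries of unlike number gave -0.083 and -0.129, a mirror image that having 2 pericardium libraries fixes in advance. The block gave 0 calls, as did the fit without it, so that count cannot decide on pairing. With 2 pericardium libraries, the spread within that tissue rests on 1 difference.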
